A study of Mus musculus with 42 samples.

Results

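Haptoglobin (*Hp*) and 9 other genes were followed across 7 tissues of wild-type and *Tug1* knockout mice. They were the acute phase genes *Hpx*, *Saa1*, *Saa2*, *Saa3*, *Lcn2*, *Serpina3n*, *Orm1* and *Lrg1*, and the cytokine receptor gene *Il17rb*. Together with *Hp* they made up 10 of the 26653 genes measured, chosen by symbol with their wild-type and knockout values already known. Their differences between genotypes are therefore given as a description. *Lcn2* and *Lrg1* were higher in the knockout than in the wild-type in the 6 tissues where their mean was at least 1 FPKM, by up to 2.67 times for *Lcn2* in the spleen and 3.19 times for *Lrg1* in the testes. *Hp* was higher in the knockout prostate (3.39 times) and eye (4.03 times), lower in the heart (the wild-type value was 1.95 times the knockout value), and nearly equal in the liver, where its RNA was most abundant.

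Polyadenylated RNA was sequenced from the testes, prostate, spleen, eye, heart and liver of male mice and from cultured mouse embryonic fibroblasts (MEFs, at passage 2). All mice belonged to the Tug1_tm1.1Vlcg strain on a C57BL/6J background without the Neo cassette. Wild-type mice carried 2 intact *Tug1* alleles, and on both alleles of the knockout (*Tug1*-/-) mice a lacZ reporter stood in the place of *Tug1*, a long noncoding RNA gene. The 22 wild-type and 20 knockout samples comprised 4 and 3 testes, 3 and 2 prostates, and 3 of each genotype for every other tissue, and the age of the mice whose organs were taken is not given in the sources used here. *Tug1* was replaced in every cell of the animal, so effects within a tissue and effects of other tissues on it cannot be told apart, and the MEFs are cultured cells from littermate embryos. The deposited values are 1 pooled value per gene, genotype and tissue in FPKM, a fragment count scaled for transcript length and sequencing depth. They carry no replicate error, and depth is unknown. The authors' own p-values were set aside, and pooled values allow none to be recomputed, so no test, standard deviation or p-value is given for any difference, and "higher" and "lower" describe pooled values only. Where values of both genotypes are joined by "and", the wild-type value comes first.

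The labels were checked against the values. *Tug1* lay between 11.2 and 27.7 FPKM in the wild-type tissues and between 0.00753 and 0.402 FPKM in the knockout tissues, and the lacZ reporter reached 0.355 to 54.3 FPKM in the knockout against at most 0.00894 FPKM in the wild-type. Defining transcripts were abundant in their tissues, such as *Prm1* in the wild-type testes (9265 FPKM), *Pbsn* in the prostate (25020 FPKM), *Cd79a* in the spleen (420 FPKM), *Myh6* in the heart (2644 FPKM) and *Col1a1* in the MEFs (1754 FPKM). In the liver, *Apoa2* stood at 28930 FPKM, while *Alb* and *Serpina1a* were listed at 0 in both genotypes, so an entry of 0 may be a failed estimate and is described here only as listed at 0. The spleen held transcripts of other organs. *Alb* was 4.85 FPKM in the wild-type and 0.0366 FPKM in the knockout spleen, and *Spink3*, a gene of glandular epithelium, was 0.0653 and 28.5 FPKM.

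The acute phase response is the change in plasma proteins that follows infection, injury or haemolysis. Cytokines of the interleukin-6 and interleukin-1 families act on hepatocytes through STAT3, NF-kB and C/EBP factors, and the liver then secretes carrier, protease inhibitor and serum amyloid A proteins in large amounts. Several of these genes are also transcribed outside the liver, in adipocytes, macrophages, epithelia and neutrophil precursors, and some respond to glucocorticoids.

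The members fall into 4 roles. *Hp* encodes haptoglobin, which binds free haemoglobin, *Hpx* encodes hemopexin, which binds free haem, and *Orm1* encodes the lipid and drug carrier orosomucoid. *Saa1*, *Saa2* and *Saa3* encode serum amyloid A apolipoproteins of high-density lipoprotein. *Lcn2* encodes lipocalin 2, which withholds iron by binding bacterial siderophores, *Serpina3n* encodes a secreted serine protease inhibitor, and *Lrg1* encodes a secreted leucine-rich glycoprotein. *Il17rb* encodes a receptor for interleukin 17 family cytokines.

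*Saa1*, *Saa2* and *Saa3* lie within 42316 bases of chromosome 7 (46711998 to 46754313, GRCm38). The coding sequences of *Saa1* and *Saa2* were 95.1% identical, and those of *Saa1* and *Saa3* were 75.9% identical over the aligned positions. Their first 60 coding bases, from the GENCODE vM21 transcripts, are shown because near-identical genes can share reads, with capitals at the bases that differ from *Saa1* at the same position.
Saa1: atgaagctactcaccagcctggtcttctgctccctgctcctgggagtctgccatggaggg
Saa2: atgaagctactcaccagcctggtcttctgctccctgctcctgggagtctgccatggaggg
Saa3: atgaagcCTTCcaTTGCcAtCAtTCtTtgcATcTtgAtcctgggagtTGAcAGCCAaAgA
*Saa2* did not differ from *Saa1* over these bases, and *Saa3* differed at 28. No stretch of 100 bases was shared between the reference transcripts of the 3 genes and any other gene. The same held for *Hp*, *Hpx*, *Lcn2* and *Lrg1*, whereas *Orm1* shared 6.95% of its 100-base windows with *Orm2*, *Il17rb* shared 2.29% with *Actr8*, a gene that overlaps it on the opposite strand, and *Serpina3n* shared 0.204% with its relatives *Serpina3e-ps* and *Serpina3g*. The library kit did not mark strand, so *Il17rb* reads in that overlap cannot be told apart from *Actr8* reads.

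The RefSeq promoter table (GRCm38.p6, 250 bases before to 50 after the start of transcription) held 8 of the 10 members, all except *Hp* and *Orm1*. The promoters of the 3 serum amyloid A genes and of *Lcn2*, *Serpina3n* and *Lrg1*, the 3 members with the largest changes in the testes, are printed 5′ to 3′ on the strand of the gene. Capitals mark matches, on either strand, to TTNNGNAA (a C/EBP motif), TTCNNNGAA (a STAT3 motif) or GGNNTTTCC (an NF-kB core).
Saa1, chr7:46742931-46743230 (-): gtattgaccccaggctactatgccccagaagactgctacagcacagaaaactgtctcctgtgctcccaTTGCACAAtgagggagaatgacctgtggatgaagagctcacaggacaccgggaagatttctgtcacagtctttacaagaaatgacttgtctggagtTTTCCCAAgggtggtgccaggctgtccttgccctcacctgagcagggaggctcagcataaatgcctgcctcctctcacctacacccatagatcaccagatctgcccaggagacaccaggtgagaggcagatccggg
Saa2, chr7:46751583-46751882 (+): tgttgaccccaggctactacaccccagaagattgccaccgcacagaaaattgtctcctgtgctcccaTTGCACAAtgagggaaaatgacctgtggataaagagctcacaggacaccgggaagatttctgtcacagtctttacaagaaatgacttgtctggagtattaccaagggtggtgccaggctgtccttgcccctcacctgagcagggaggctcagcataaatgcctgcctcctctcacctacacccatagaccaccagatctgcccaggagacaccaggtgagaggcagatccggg
Saa3, chr7:46715627-46715926 (-): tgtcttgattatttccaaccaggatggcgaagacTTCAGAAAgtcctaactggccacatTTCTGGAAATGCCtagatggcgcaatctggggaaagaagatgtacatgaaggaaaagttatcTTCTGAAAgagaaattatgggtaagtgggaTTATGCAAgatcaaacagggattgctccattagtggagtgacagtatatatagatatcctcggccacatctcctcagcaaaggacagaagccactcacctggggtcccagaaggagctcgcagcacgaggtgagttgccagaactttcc
Lcn2, chr2:32387690-32387989 (-): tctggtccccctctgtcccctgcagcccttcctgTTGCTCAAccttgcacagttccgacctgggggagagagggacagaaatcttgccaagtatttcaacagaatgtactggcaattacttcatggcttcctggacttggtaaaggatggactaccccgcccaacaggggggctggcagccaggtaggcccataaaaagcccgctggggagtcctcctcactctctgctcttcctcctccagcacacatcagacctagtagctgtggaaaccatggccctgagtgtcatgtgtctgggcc
Serpina3n, chr12:104406458-104406757 (+): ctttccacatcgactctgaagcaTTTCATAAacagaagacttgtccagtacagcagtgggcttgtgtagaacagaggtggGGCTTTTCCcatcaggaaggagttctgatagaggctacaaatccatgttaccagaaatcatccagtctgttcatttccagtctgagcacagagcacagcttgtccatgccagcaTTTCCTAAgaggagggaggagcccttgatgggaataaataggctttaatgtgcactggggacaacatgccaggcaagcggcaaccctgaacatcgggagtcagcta
Lrg1, chr17:56121897-56122196 (-): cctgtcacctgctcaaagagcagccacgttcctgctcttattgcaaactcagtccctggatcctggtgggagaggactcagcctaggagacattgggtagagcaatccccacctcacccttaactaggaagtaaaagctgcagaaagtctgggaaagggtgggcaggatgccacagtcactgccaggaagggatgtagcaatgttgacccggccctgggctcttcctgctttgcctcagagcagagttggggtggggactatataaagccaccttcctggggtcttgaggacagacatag
The C/EBP letters were found in 6 of the 8 promoters, against 40.7% of the 32851 promoters of the table. The NF-kB letters were found in 2 of 8, *Saa3* and *Serpina3n*, against 5.82% of all, and the STAT3 letters in 0 of 8 against 8.3% of all. *Saa1* held 2 C/EBP matches and *Saa2* held 1, although the 2 promoters were 95.3% identical. *Saa3* held 4, the second of which overlapped its NF-kB match, and its promoter was 50.1% identical to that of *Saa1*. Neither *Lrg1* nor *Il17rb* held a match. A match describes letters only.

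Across tissues, levels were ordered after each genotype and tissue had been rescaled to TPM, in which the values of all genes have the same sum, because the FPKM sums ranged from 378014 to 1124495. The spread between mice is not known, so no neighbour in these orders can be said to differ. In the wild-type, *Hp* was ordered liver (2062 TPM), heart (35.6), spleen (17.1), eye (14.1), prostate (6.91), MEFs (0.660) and testes (0.357). Of the 10 genes, 9 had their highest wild-type level in the liver. The exception was *Lcn2*, at 229.8 TPM in the testes, 29.5 TPM in the spleen and 2.83 TPM in the liver. *Serpina3n* came next after the liver in the eye (49.4 TPM against 189.4 TPM), and *Lrg1* in the heart (32.5 TPM against 179.3 TPM). *Hpx* was the most confined of the carriers by level, with 3492 TPM in the liver and at most 1.19 TPM in any other wild-type tissue.

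**Figure D1:**
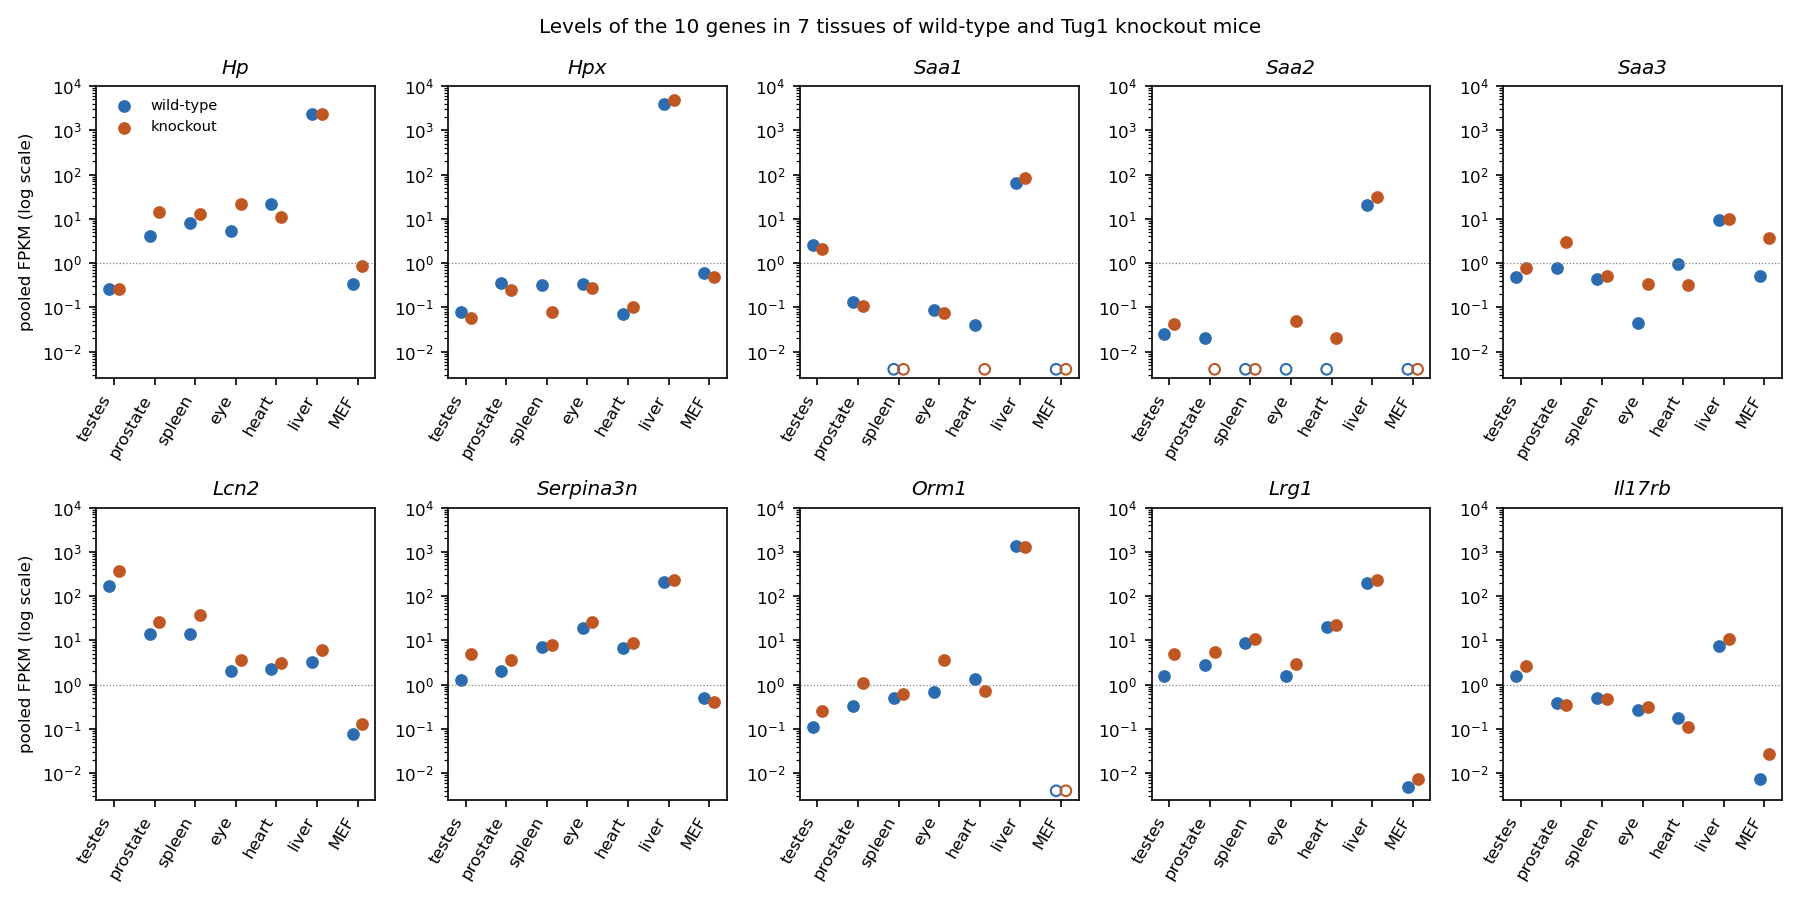
Pooled FPKM of each of the 10 genes (log scale) in 7 tissues, wild-type in blue and knockout in orange, with open circles at the bottom for values listed at 0 and a dotted line at 1 FPKM. Blue and orange points nearly coincide for Hp in the liver, while the orange point lies above the blue one for Lcn2 in 7 of 7 tissues.

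*Hp* differed between genotypes in opposite directions. It stood at 4.19 FPKM in the wild-type and 14.2 FPKM in the knockout prostate, at 5.35 and 21.5 FPKM in the eye, and at 8.19 and 12.6 FPKM in the spleen. In the heart the order was turned, with 21.7 FPKM in the wild-type and 11.1 FPKM in the knockout. The liver held 2318 and 2305 FPKM, the testes 0.260 and 0.256 FPKM, and the MEFs 0.333 and 0.882 FPKM. On the log2((FPKM + 0.1)/(FPKM + 0.1)) scale, knockout against wild-type, these were changes of 1.74 in the prostate, 1.99 in the eye, 0.62 in the spleen, -0.96 in the heart and 1.18 in the MEFs, with -0.01 in the liver and -0.02 in the testes. The prostate, eye, spleen and MEFs were on the higher side, the heart was on the lower side, and the liver and testes differed by at most 1.02 times.

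The other 2 plasma carriers were mostly liver transcripts. *Orm1* was 1355 FPKM in the wild-type and 1291 FPKM in the knockout liver. At its far lower levels elsewhere it took the directions of *Hp* in 3 tissues, with 0.685 and 3.68 FPKM in the eye, 0.3305 and 1.099 FPKM in the prostate, and 1.32 and 0.721 FPKM in the heart. It was 0.113 and 0.254 FPKM in the testes, where *Hp* was nearly equal, 0.491 and 0.629 FPKM in the spleen, and listed at 0 in the MEFs of both genotypes. *Hpx* was 3927 and 4788 FPKM in the liver, a change of 0.29, and stayed at or below 0.600 FPKM in every other tissue and genotype. In the spleen *Hpx* was 0.318 FPKM in the wild-type and 0.0780 FPKM in the knockout, beside the *Alb* values given above for the same tissue.

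Of the serum amyloid A genes, *Saa1* and *Saa2* were nearly confined to the liver by level. *Saa1* stood there at 64.4 and 84.05 FPKM and *Saa2* at 20.4 and 31.7 FPKM, changes of 0.38 and 0.63. *Saa1* was also measured in the testes, at 2.57 FPKM in the wild-type and 2.085 FPKM in the knockout, and *Saa2* did not exceed 0.0503 FPKM outside the liver. *Saa3*, the member of the family known for its expression in macrophages and adipose tissue, behaved otherwise. It was 0.5085 FPKM in the wild-type and 3.65 FPKM in the knockout MEFs (7.18 times), 0.769 and 2.96 FPKM in the prostate (3.85 times), and 9.485 and 9.955 FPKM in the liver. Its values were 0.974 and 0.320 FPKM in the heart, 0.0454 and 0.340 FPKM in the eye, 0.476 and 0.790 FPKM in the testes, and 0.4365 and 0.503 FPKM in the spleen, all below a mean of 1 FPKM.

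*Lcn2* was higher in the knockout in 7 of 7 tissues, although its MEF values lay near 0. It was 167.5 FPKM in the wild-type and 368.1 FPKM in the knockout testes, 13.9 and 26.1 FPKM in the prostate, and 14.1 and 37.6 FPKM in the spleen. The lower levels were 2.07 and 3.655 FPKM in the eye, 2.24 and 3.06 FPKM in the heart, 3.18 and 6.03 FPKM in the liver, and 0.0753 and 0.13 FPKM in the MEFs. Changes lay between 0.39 in the MEFs and 1.41 in the spleen, and the direction held in 7 of 7 tissues after rescaling to TPM as well.

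*Lrg1* shared that direction. It was 1.53 and 4.88 FPKM in the testes, 2.80 and 5.43 FPKM in the prostate, and 1.56 and 2.88 FPKM in the eye. In the 3 tissues where it was most abundant the values lay closer together, with 202 and 234 FPKM in the liver, 19.8 and 22.1 FPKM in the heart, and 8.49 and 10.6 FPKM in the spleen. In the MEFs it was near 0 in both genotypes (0.00487 and 0.00742 FPKM), too low to read a direction from.

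*Serpina3n* was 1.27 FPKM in the wild-type and 4.82 FPKM in the knockout testes, the largest of its changes (3.80 times). It was 2.06 and 3.51 FPKM in the prostate, 18.7 and 25.7 FPKM in the eye, and 6.73 and 8.60 FPKM in the heart. The liver held 213 and 233 FPKM, the spleen 6.99 and 7.79 FPKM, and the MEFs 0.498 and 0.396 FPKM. The knockout value was the higher one in 6 of 7 tissues.

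*Il17rb*, the receptor of the group, was measured above a mean of 1 FPKM in 2 tissues, at 1.59 and 2.59 FPKM in the testes and 7.55 and 10.5 FPKM in the liver. It did not exceed 0.510 FPKM in any other tissue or genotype. The genes of its ligands, *Il17b* and *Il25*, did not exceed 0.136 FPKM in any tissue or genotype.

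**Figure D2:**
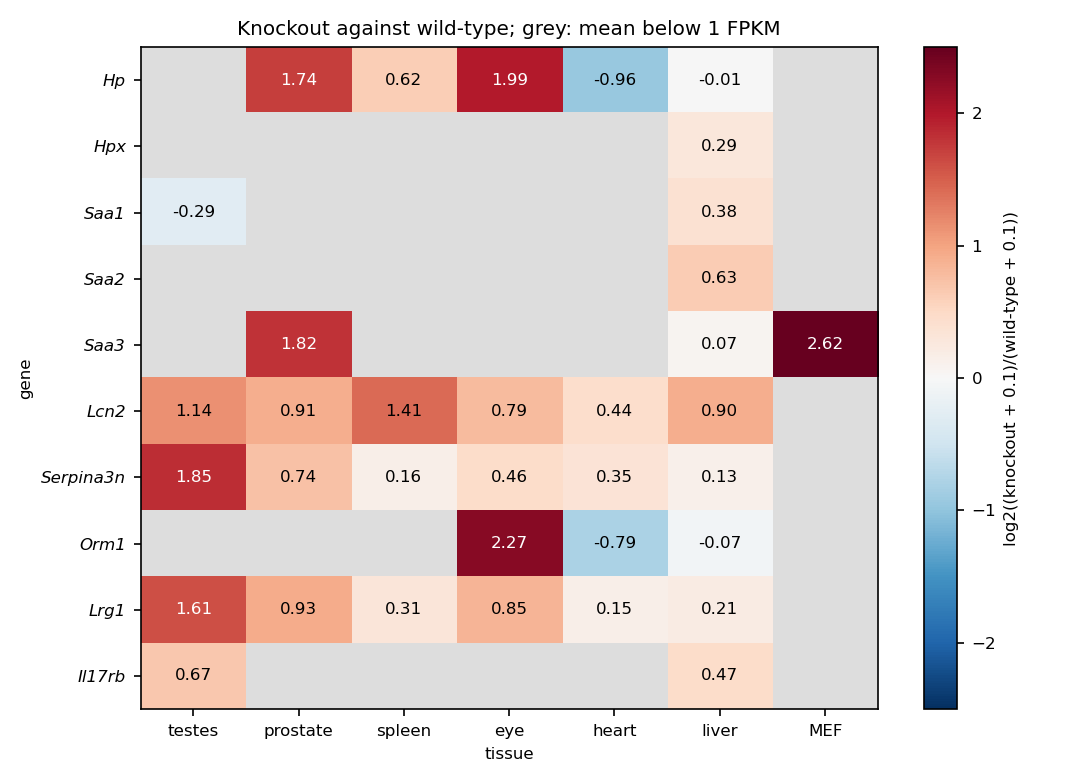
Log2 change of the 10 genes, knockout against wild-type with 0.1 FPKM added to both values, for each tissue, with red for higher and blue for lower in the knockout and grey where the mean of the 2 genotypes was below 1 FPKM. Lcn2, Serpina3n and Lrg1 are red in every tissue where they are shown, and Hp turns from 1.99 in the eye to -0.96 in the heart.

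A gene was counted as past the fold limit where its mean over the 2 genotypes was at least 1 FPKM and its change exceeded 1.5 times. Of the 70 pairs of a member and a tissue, 35 reached that mean, 18 of them were past the limit with the higher value in the knockout, 2 with the lower value and 15 were within it. The share of all genes past the limit is printed beside each count, and nothing is read from the comparison, because the members were selected on these values. *Saa3* in the MEFs and the prostate, and *Orm1* in the eye, reached the mean through the knockout value alone, and *Orm1* in the heart through the wild-type value alone. The same holds for any counted gene of the lists below with a value under 1 FPKM in either genotype. Such a gene could be counted in that direction only.

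In the testes 4 of 5 members were past the limit with the higher value in the knockout, *Lcn2*, *Serpina3n*, *Lrg1* and *Il17rb*, and 0 with the lower one (1.17% and 0.753% of 15143 genes). In the prostate 5 of 5 were higher, *Hp*, *Saa3*, *Lcn2*, *Serpina3n* and *Lrg1* (2.4% higher and 0.682% lower, of 12166 genes). In the spleen 2 of 4 were higher, *Hp* and *Lcn2* (4.91% and 1.1% of 12618 genes). In the eye 4 of 5 were higher, *Hp*, *Lcn2*, *Orm1* and *Lrg1* (2.64% and 0.867% of 14298 genes). In the heart 2 of 5 were lower, *Hp* and *Orm1*, and 0 higher (0.874% higher and 1.44% lower, of 12695 genes). In the liver, where 10 of 10 members were measured, 2 were higher, *Saa2* and *Lcn2* (2.55% and 2.25% of 11711 genes). In the MEFs the single measured member, *Saa3*, was higher (0.975% and 2.2% of 11587 genes). These shares of all genes also apply to the counts of the gene lists in the same tissues below.

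The balance of all genes depended on scaling in 4 tissues. The share of genes past the limit that were higher in the knockout went from 60.8% to 78.7% in the testes after rescaling to TPM, from 53.1% to 80.2% in the liver, from 30.7% to 43.1% in the MEFs and from 37.8% to 23.3% in the heart. Centring on the median change brought it to 72.5% in the testes. In the liver the median change of all genes was -0.02 as deposited and 0.14 in TPM, so the small liver changes of *Hp* and *Orm1* took the other sign in TPM, and *Il17rb* passed the limit there in TPM with 0.62.

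The inducing cytokines were examined next. Of 11 genes, none reached a mean of 1 FPKM in the prostate or eye. *Il1b*, which encodes interleukin 1 beta, was lower in the knockout spleen (25.2 FPKM in the wild-type and 13.2 FPKM in the knockout), heart (3.765 and 1.65 FPKM) and liver (6.00 and 2.73 FPKM). The MEFs differed, with 6 cytokines measured and 4 of them past the limit, all higher in the knockout. There *Il1b* was 0.247 and 5.36 FPKM, *Tnf* 0.242 and 3.53 FPKM, *Il1a* 0.327 and 2.75 FPKM, and *Il6*, the main inducer of hepatic acute phase genes, 2.81 and 4.35 FPKM. *Il1b*, *Tnf* and *Il1a* reached the mean through the knockout value alone, so they could only be counted as higher. Outside the MEFs *Il6* did not exceed 0.2015 FPKM in either genotype, and *Tnf* exceeded 1 FPKM in the spleen only, at 3.44 and 3.235 FPKM. In the testes 3 cytokines were measured and 0 were past the limit.

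The knockout MEFs, with the higher *Saa3*, also had higher values of NF-kB feedback genes. *Nfkbia*, which encodes the NF-kB inhibitor I-kappa-B alpha, was 10.9 FPKM in the wild-type and 31.5 FPKM in the knockout, and *Bcl3*, a nuclear partner of NF-kB, was 3.86 and 6.86 FPKM. *Cd14*, the lipopolysaccharide co-receptor, was 2.92 and 5.56 FPKM. *Stat3* was 46.6 and 40.9 FPKM, and its feedback inhibitor *Socs3* was 5.27 and 5.02 FPKM. Macrophage markers did not move one way in these cultures, with *Lyz2* at 54.4 and 95.02 FPKM and *Mrc1* at 4.93 and 2.97 FPKM, and the part of such cells in these values was not tested.

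**Figure D3:**
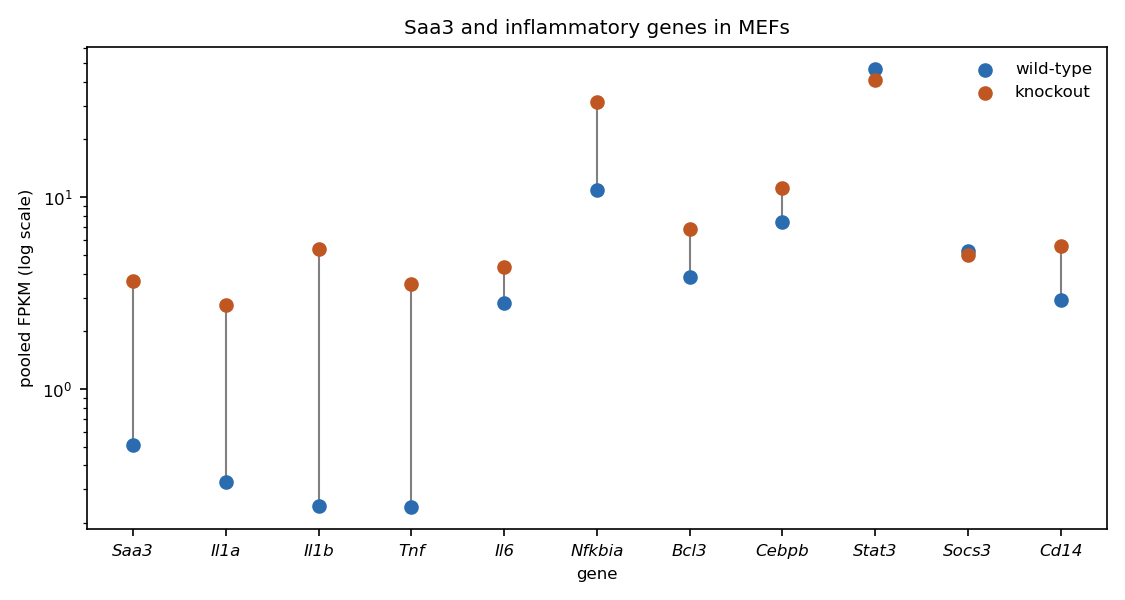
Pooled FPKM (log scale) of Saa3, 4 inducing cytokines, 5 signalling genes and Cd14 in MEFs, wild-type in blue and knockout in orange, joined by a line for each gene. Saa3, Il1a, Il1b and Tnf have the longest lines, and Stat3 and Socs3 have the orange point slightly below the blue one.

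For the 9 signalling and feedback genes that were measured, 60 pairs of a gene and a tissue reached the mean. Of these pairs 5 were past the limit, all higher in the knockout (0.874% to 4.91% of all genes, by tissue). Apart from *Nfkbia* and *Bcl3* in the MEFs, these were *Bcl3* in the testes (1.71 and 2.67 FPKM) and *Cebpb*, which encodes a C/EBP factor, in the heart (8.90 and 14.65 FPKM) and liver (35.8 and 54.8 FPKM). *Stat3* changes ran from -0.19 in the MEFs to 0.25 in the heart. *Socs3* changes ran from -0.43 in the liver to 0.16 in the testes, where it was below 1 FPKM. In the testes, the tissue with the largest *Serpina3n* and *Lrg1* differences, the receptor genes *Il17ra* (1.45 and 2.985 FPKM) and *Il1r1* (1.93 and 3.24 FPKM) were also past the limit.

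Of 10 cytokine receptor genes, 65 pairs of a gene and a tissue reached the mean. Of these pairs 6 were past the limit, all higher in the knockout (0.874% to 4.91% of all genes, by tissue). The other 4 were *Lifr* in the prostate (1.71 and 3.48 FPKM), *Il6ra* in the eye (0.789 and 1.30 FPKM) and liver (17.98 and 30.95 FPKM), and *Osmr* in the liver (0.967 and 1.73 FPKM). The list medians lay between -0.07 in the MEFs and 0.21 in the testes, beside medians of all genes between -0.06 and 0.03.

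The 30 other acute phase genes of the list were described in the same way. Of 84 pairs above a mean of 1 FPKM, 15 were past the limit with the higher value in the knockout and 1 with the lower, and the list medians lay between 0.10 in the spleen and 0.34 in the MEFs. In the liver 5 of 26 were higher and 1 lower. The leading ones there were the metallothioneins *Mt2* (13.65 and 38.8 FPKM) and *Mt1* (60.8 and 141.3 FPKM), which bind zinc, and *Il1rn* (2.77 and 5.13 FPKM), the interleukin 1 receptor antagonist. *Mt2* was also past the limit in the spleen (14.2 and 32.3 FPKM) and heart (30.4 and 61.1 FPKM). In the eye the complement genes *C3* (6.91 and 17.7 FPKM) and *Cfb* (3.32 and 5.72 FPKM) were past it. In the testes and in the prostate 0 of 9 genes were past the limit, where 1.92% and 3.08% of all genes were past it in either direction.

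Of the 7 negative acute phase genes, whose plasma proteins fall in inflammation, 6 were measured in the liver and 0 were past the limit, with changes between -0.10 and 0.20. Elsewhere *Trf* (9.53 and 25.4 FPKM) and *Rbp4* (0.667 and 2.49 FPKM) were higher in the knockout prostate, *Rbp4* was higher in the eye (2.18 and 5.695 FPKM), *Ahsg* was higher in the heart (8.88 and 14.0 FPKM), *Trf* was lower in the MEFs (3.695 and 2.32 FPKM), and *Alb* was lower in the spleen as given above. In the prostate and eye the members past the limit were higher in the knockout, as were the negative acute phase genes past it. Of the 9 other acute phase genes measured in the prostate, 6 had changes above 0, and the list median was 0.19. The changes below 0 were -0.18 for *Mt1*, -0.14 for *Mt2* and -0.14 for *Fgl1*. None of the 9 was past the limit.

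*Cd163* encodes the macrophage receptor that takes up haptoglobin bound to haemoglobin. It was higher in the knockout prostate (1.08 and 2.82 FPKM), eye (1.07 and 2.39 FPKM), spleen (12.7 and 20.4 FPKM) and heart (6.78 and 11.25 FPKM), that is, in the 3 tissues where *Hp* was past the limit and higher and in the 1 where it was lower. It was 5.93 and 8.38 FPKM in the liver. *Hmox1*, which encodes the haem-degrading enzyme haem oxygenase 1, was past the limit in the heart (9.01 and 13.6 FPKM) and liver (16.4 and 28.3 FPKM). For the 7 genes of haemoglobin and haem clearance, 47 pairs reached the mean. Of these pairs 7 were past the limit, all higher (0.874% to 4.91% of all genes, by tissue). The seventh pair was *Slc40a1*, the iron exporter, in the testes (0.792 and 1.41 FPKM).

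Adipocyte markers took the same directions as *Hp* in the prostate, eye and heart. In the spleen 3 markers were measured, 1 of them with a change above 0. In the MEFs the 1 measured marker, *Fabp4*, had a change of 0.02, so no direction is read there. In bulk samples, more cells of a type and more RNA per cell cannot be told apart. In the prostate 7 of 8 measured adipocyte markers were past the limit and higher, with a list median of 1.77, led by *Cfd* (26.4 and 126.2 FPKM), *Cidec* (4.82 and 20.0 FPKM) and the adipokine gene *Adipoq* (3.93 and 15.5 FPKM). In the eye 8 of 8 were higher, with a median of 1.57, led by *Cfd* (20.6 and 117.7 FPKM), *Cidec* (5.54 and 24.7 FPKM) and *Fabp4* (76.2 and 243.2 FPKM). In the heart 6 of 8 were lower and 0 higher, with a median of -1.03, led by *Retn* (5.59 and 2.31 FPKM), the lipid droplet gene *Plin1* (9.81 and 4.23 FPKM) and *Pck1* (21.2 and 9.23 FPKM). The summed FPKM of the 9 markers was 91.1 and 303.9 in the prostate, 126.5 and 448.8 in the eye, and 1582 and 1417 in the heart. Most of the heart sum was *Fabp4*, at 1392 and 1311 FPKM with a change of -0.09, so that sum does not follow the list median. Haptoglobin is itself a transcript of fat cells, and the part of adipocytes in the *Hp* and *Orm1* values was not tested.

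In the other tissues the list gave less. In the testes and spleen 3 markers were measured in each and 0 were past the limit, with medians of -0.16 and -0.10, and in the MEFs 1 was measured, while *Hp* in the MEFs differed by 2.65 times below 1 FPKM and *Cidec*, *Lep* and *Cfd* were listed at 0 in both genotypes. In the liver 4 were measured, of which *Lipe* was past the limit and lower (8.74 and 5.35 FPKM), and *Plin1* and *Lep* were listed at 0. The hepatocyte list, which *Hp* and *Orm1* could also follow, had *Cyp2e1* higher in the knockout prostate (3.51 and 23.6 FPKM) and eye (9.54 and 45.3 FPKM), a gene that fat cells also transcribe, and 0 of 6 measured genes past the limit in the liver. In the spleen *Apoa2* (2.59 and 0.4135 FPKM) and *Alb* were lower.

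**Figure D4:**
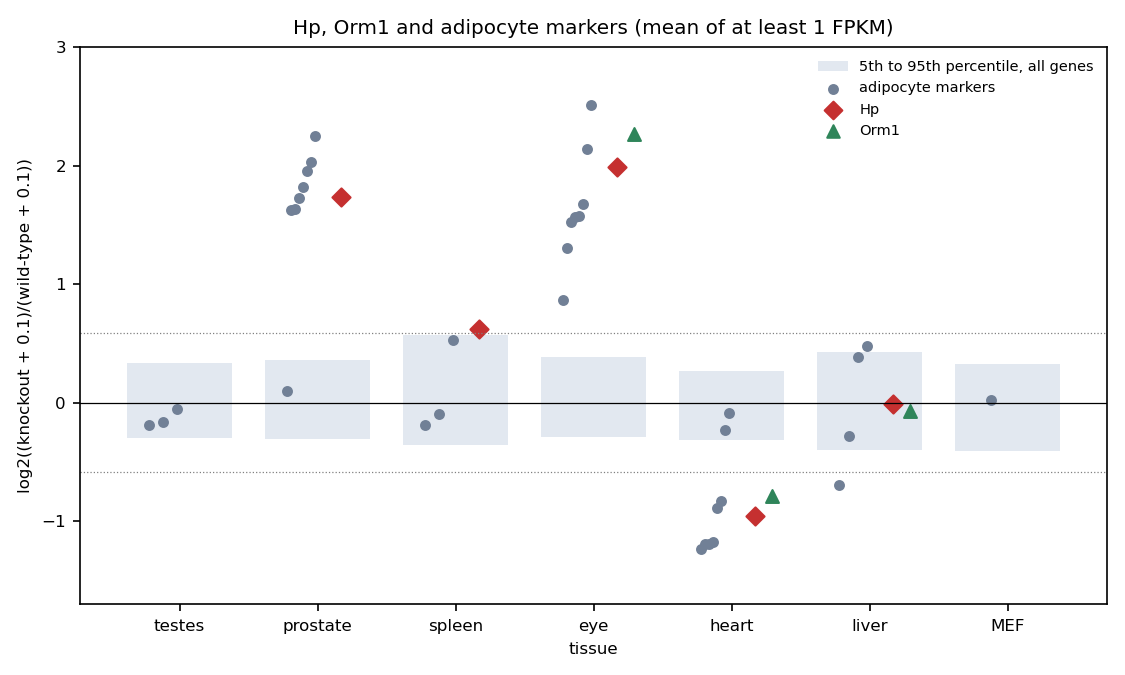
Log2 change, knockout against wild-type with 0.1 FPKM added, of Hp (red diamonds), Orm1 (green triangles) and adipocyte markers (grey points) with a mean of at least 1 FPKM, by tissue, over a band from the 5th to the 95th percentile of all genes and dotted lines at 1.5 times. Hp lies among the adipocyte markers in the prostate, eye and heart and at -0.01 in the liver.

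Neutrophil markers were read beside *Lcn2*, which neutrophil precursors store in their granules. In the spleen 12 of 12 were measured and 9 were past the limit and higher, with a median of 1.03. The largest changes were those of *Mpo* (4.86 and 17.1 FPKM), *Elane* (6.67 and 21.2 FPKM) and *Ngp* (29.7 and 91.4 FPKM). The other 3, not past the limit, were on the lower side and are named after their values were seen. They were *Retnlg* (40.1 and 30.4 FPKM), *Mmp9* (5.55 and 4.75 FPKM) and *Cxcr2* (7.72 and 7.25 FPKM). The summed FPKM of the 12 markers was 784.1 in the wild-type and 1566 in the knockout spleen. In the eye 3 of 4 were higher, with *S100a8* at 0.628 and 2.55 FPKM. In the liver *S100a9* (1.69 and 2.735 FPKM) and *S100a8* (1.40 and 2.23 FPKM), the 2 measured, were higher. In the heart 0 of 4 were past the limit and the median was -0.49, on the other side from *Lcn2*. In the testes, which had the highest *Lcn2*, 1 of 12 markers reached a mean of 1 FPKM and 9 were below 0.1 FPKM in both genotypes, and in the prostate the 1 measured marker was *Mmp9* (1.496 and 2.58 FPKM), with 7 below 0.1 FPKM in both. The part of neutrophils in the *Lcn2* values was not tested.

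Macrophage markers were past the limit and higher in 3 of 8 genes in the prostate, led by *Cd163* and *Mrc1* (2.57 and 6.09 FPKM), and in 3 of 8 in the liver, led by *Ms4a7* (0.6355 and 1.76 FPKM). In the spleen, eye and heart 1 of 8 was past it, *Cd163* in each, and in the testes 0 of 6. In the MEFs 1 of 7 was higher and 1 lower. Erythroid markers were higher in 7 of 7 genes in the spleen (median 1.04, *Hba-a1* at 1087 and 2599 FPKM), 5 of 5 in the eye (median 1.56) and 4 of 5 in the prostate (median 0.66), the tissues where *Hp* was past the limit and higher. In the heart 2 were higher and 2 lower, with *Hbb-bt* at 826.5 and 3062 FPKM and *Hba-a1* at 1351 and 638 FPKM, gene copies whose reads may be split between paralogs. In the testes and liver 0 of 5 were past the limit. The part of blood left in the tissue in these values was not tested.

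Glucocorticoid-induced genes were also followed, because the glucocorticoid receptor acts on several acute phase genes. The list of 9 holds *Lcn2* itself, which was past the limit and is counted in the liver, spleen, eye, prostate and testes. The change of *Lcn2* was also the list median in the liver. The list had 6 of 9 genes past the limit and higher in the heart (median 0.73) and in the liver (median 0.90). It had 4 of 8 in the spleen (median 0.69), 4 of 9 in the eye (median 0.42) and 3 of 9 in the prostate (median 0.48). In the testes it had 1 of 8 (median 0.14) and in the MEFs 0 of 7 (median 0.08). The single gene in the testes was *Lcn2*. In the liver *Zbtb16* was 1.61 and 5.71 FPKM and *Tsc22d3* was 80.4 and 182.8 FPKM, while in the heart *Fkbp5*, a classical target of the receptor, was 5.775 and 15.9 FPKM. *Lcn2* changed by 0.90 in the liver and 0.44 in the heart, while *Hp* was nearly equal in the one and lower in the other. The hour of collection and the handling of the mice are not given in the sources used here.

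**Figure D5:**
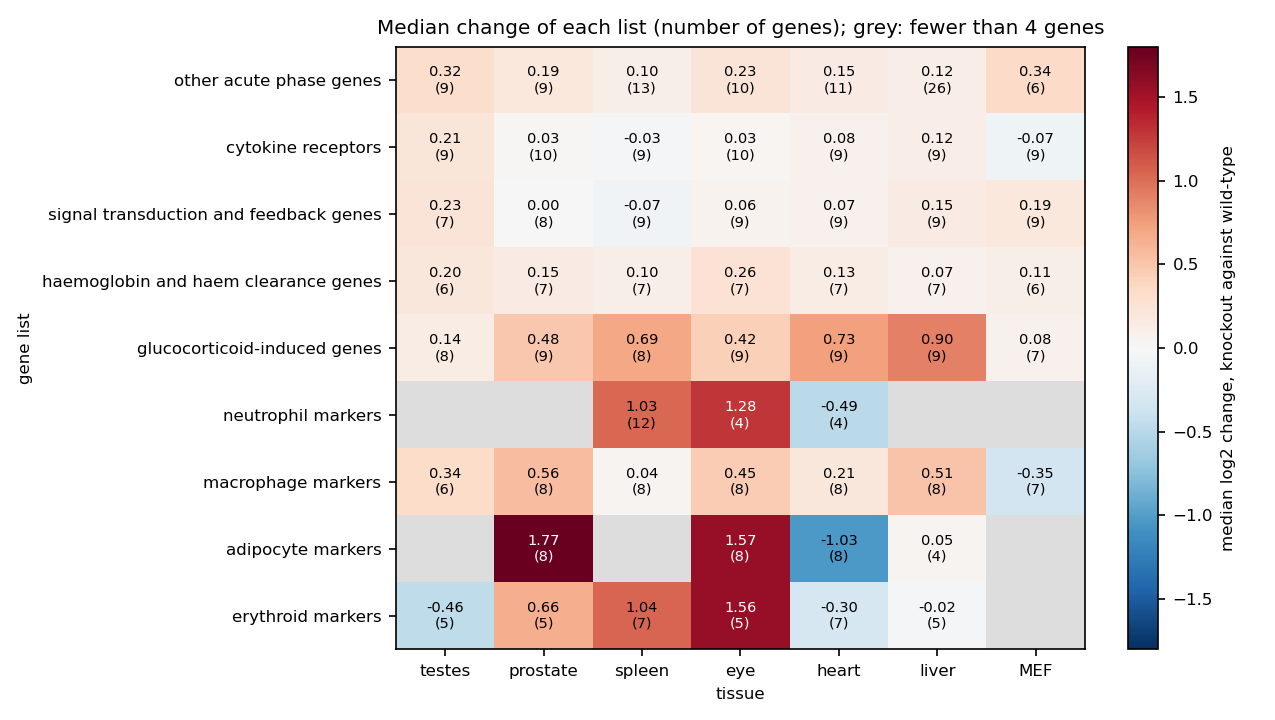
Median log2 change, knockout against wild-type, of 9 gene lists in 7 tissues, with the number of genes at a mean of at least 1 FPKM in parentheses and grey where fewer than 4 genes were measured. Adipocyte markers are highest in the prostate (1.77) and eye (1.57) and lowest in the heart (-1.03), and the other acute phase genes lie between 0.10 and 0.34.

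The genes whose changes over the 7 tissues were most like those of *Hp*, by Pearson correlation among the 8874 genes with a mean of at least 1 FPKM in 7 of 7 tissues, were *Lipt2* (r = 0.96), *1700066M21Rik* (0.94), *Styx* (0.92), *Krr1* (0.92) and *Fam151b* (0.91). Their own changes were small, from -0.31 to 0.24, so that likeness of shape did not come with likeness of size. For *Serpina3n* they were *Tspan7* (0.99), *Sptlc1* (0.98), *Mospd2* (0.98), *Pdgfra* (0.98) and *Maged2* (0.98), with changes from -0.39 to 0.90. These are the extremes of many comparisons over 7 points that share their libraries and are given with no test. The mean of at least 1 FPKM was not asked of *Hp* and *Serpina3n* themselves. *Hp* was below it in the testes and MEFs and *Serpina3n* in the MEFs, and those changes entered the correlations.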

How the data were processed

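RNA was sequenced as paired reads from unstranded polyA libraries in pools that mixed genotypes. Per the labels, the authors used CASAVA 1.8.2, TopHat2, Cuffdiff and the mm10 build. The deposited values, on another scale than counts, are FPKM per gene, genotype and tissue, pooled over replicates by the authors, with no value or count per sample, so depth is unknown and no sampling interval could be given. The deposited table also holds the authors' fold changes, test statistics, p-values and q-values, none of which was used. It includes 1 further tissue whose columns match no labelled sample, not analysed here.

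The change was log2((knockout + 0.1)/(wild-type + 0.1)), with a mean of at least 1 FPKM and a limit of 1.5 times, and it understates changes of low genes. Because there were no replicate values, no test was made. Named genes were all members, up to 3 genes per list and tissue with the largest change past the limit, the regulators *Cebpb*, *Stat3*, *Socs3*, *Il6*, *Il1b*, *Tnf*, *Cd163* and *Hmox1*, and *Tug1*, plus 5 genes most like *Hp* and *Serpina3n*. Tissue markers were named after their values were seen. The marker of the eye is not reported here. *Cebpd* was not analysed here. The members and lists were chosen with earlier results of these data known. Alternatives were other pseudocounts (1 and 0.01), TPM rescaling, centring, a limit of 2 times and other filters. The change and limit were run on simulated data whose planted changes lay past the limit by construction. That run checked the code only and gives no error rate for these data. Python 3.11.15, numpy 2.4.6, pandas 2.3.3, Biopython 1.88 and matplotlib 3.10.9 were used, with GENCODE vM21 and RefSeq GRCm38.p6 sequences.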

Additional observations from a re-analysis of the deposited data

How the results depend on the processing

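The table holds 1 pooled value per genotype and tissue, so replicate error is unknown, leaving out a mouse could not be run and every count rests on a fold limit alone. No paired analysis was possible because the deposited values carry no replicate. No alternative reversed a member's change that was past the limit. Of 280 changes of a member in a tissue under the 2 other pseudocounts, TPM and centring, 261 stayed on their side of the limit. Another 11 fell within it and 8 went past it (6 with a pseudocount of 0.01 and 2 with TPM). The 280 cover all 70 pairs, of which 35 were below a mean of 1 FPKM. Pairs listed at 0 in both genotypes could not cross the limit. The 261 therefore do not measure the stability of the counted pairs alone. With a pseudocount of 1, *Hp* was 0.57 in the spleen and 0.50 in the MEFs, within the limit, and 1 member each was past it in the spleen and heart.

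With a limit of 2 times, members past it were 2 in the prostate, 1 in the spleen, 2 in the eye, 0 in the heart and 0 in the liver, against 5, 2, 4, 2 and 2. With a mean of at least 5 FPKM, where fewer genes are counted, they were 1 in the testes, 2 in the prostate, 1 in the eye, 1 in the heart, 1 in the liver and 0 in the MEFs. With no filter on low values they were 2 in the MEFs. TPM and centring left each member count within 1.5 times of its value.

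The share of all genes past the limit in either direction was 1.92% in the testes, 3.08% in the prostate, 6.02% in the spleen, 3.51% in the eye, 2.32% in the heart, 4.81% in the liver and 3.18% in the MEFs. With a limit of 2 times it was, in that order, 0.475%, 1.11%, 1.9%, 0.699%, 0.701%, 1.4% and 0.647%. With a pseudocount of 1 it was, in the same order, 0.911%, 1.87%, 4.37%, 2.29%, 1.28%, 3.04% and 1.67%. With no filter it was, in the same order, 5.03%, 6.4%, 6.89%, 4.5%, 4.97%, 8.01% and 5.67%. With a mean of at least 5 FPKM it was, in the same order, 0.777%, 1.71%, 4.66%, 2.73%, 1.37%, 3.36% and 1.59%.

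List counts summed over tissues moved too. With a limit of 2 times they were 5 of the other acute phase genes (16 before), 0 of the cytokine receptors (6), 1 of the signalling genes (5), 2 of the haem clearance genes (7), 13 of the glucocorticoid-induced genes (24), 9 of the neutrophil (15), 4 of the macrophage (11) and 11 of the erythroid markers (20). With a mean of at least 5 FPKM they were 9 of the other acute phase genes, 2 of the negative acute phase genes (6), 1 of the cytokines (7), 1 of the receptors, 4 of the haem clearance genes, 7 of the neutrophil, 5 of the macrophage and 2 of the hepatocyte markers (4). With no filter they were 36 of the other acute phase genes, 15 of the negative acute phase genes, 26 of the neutrophil and 11 of the hepatocyte markers. TPM gave 17 of the macrophage markers, and a pseudocount of 1 gave 3 of the receptors. Adipocyte counts (22) stayed within 1.5 times under each alternative.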

Other observations

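A count chosen after the values were seen asked which genes took the directions of *Hp* in the prostate, eye and heart. Its directions came from the *Hp* values themselves, so it tests no cause. The part of adipocytes in these values was not tested. Of 10850 genes with a mean of at least 1 FPKM in these 3 tissues, 13 were more than 1.5 times higher in the knockout prostate and eye and more than 1.5 times lower in the knockout heart. *Hp* is 1 of them by construction of the count. Another 6 belong to the adipocyte list, of which 8 genes were measured in the 3 tissues, *Adipoq*, *Cfd*, *Cidec*, *Pck1*, *Plin1* and *Retn*. The remaining 6 were *Adig* and *Car3*, both known from fat tissue, the globin genes *Hba-a1* and *Hbb-bs*, *Apol6* and the muscle gene *Mybpc1*, whose heart change was -3.20. The globin copies *Hba-a2* (542 and 1171 FPKM) and *Hbb-bt* (826.5 and 3062 FPKM) were higher in the knockout heart. Reads may be split between these copies. *Car3* changed by 1.82 in the prostate, 1.095 in the eye and -0.997 in the heart, beside 1.74, 1.99 and -0.96 for *Hp*. The B cell genes *Cd79a* (9.51 FPKM in the wild-type and 4.499 FPKM in the knockout) and *Ms4a1* (4.94 and 1.91 FPKM) were lower in the knockout heart too, and their part in the heart values was not tested.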
